A study of Mus musculus with 8 samples.

Results

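Oncostatin M (Osm), interleukin 6 (Il6), leukaemia inhibitory factor (Lif), their receptor chains Osmr, Il6ra and Il6st, and the feedback inhibitor Socs3 were followed in immune cells that had infiltrated beta cell grafts. The 7 genes were taken by name from the 32285 genes of the deposited count table, and each was described in every graft and cell type by its CPM, the gene's UMIs (counted molecules) scaled to a total of 1000000 UMIs. NIT-1 is a beta cell line from NOD mice. Wild-type (WT) NIT-1 cells and NIT-1 cells mutant for Renalase (Rnls mut) were placed on opposite flanks of NOD.scid mice, which lack T and B cells of their own, and all hosts then received splenocytes from recently diabetic NOD mice. CD45+ cells of the grafts were sequenced 10 or 17 days after the transfer, so that the 4 groups were Rnls mut day 10, WT day 10, Rnls mut day 17 and WT day 17. The labels name the grafted beta cells as the cell type, while the sequenced cells were the immune cells of the graft. Each group was 1 library holding 4 grafts told apart by hashtag antibodies, 16 grafts in all. Genotype and library therefore cannot be told apart, nor can day and library, and the labels do not say which graft pairs came from the same mouse. Myeloid cells of the host and of the donor spleen cannot be told apart either.

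The cytokines of this family signal through gp130, the protein that Il6st encodes. Interleukin 6 first binds Il6ra, a chain that myeloid cells and T cells carry and that also occurs in soluble form, whereas oncostatin M binds Osmr paired with gp130, and leukaemia inhibitory factor binds Lifr paired with gp130. These receptors activate Janus kinases and STAT3, which induces Socs3, and the Socs3 protein in turn binds gp130 and damps the signal. Oncostatin M is known as a product of activated myeloid and T cells, while Osmr is carried mainly by stromal, endothelial and epithelial cells.

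The table held 22441 cells, which the depositors had assigned to 12 cell types and 29 clusters. The grafts contained 350 to 1967 cells and 1742746 to 9729233 UMIs each, with a median of 3520 UMIs per cell. Cell barcodes seen in more than 1 library numbered 42, or 0.188% of 22399. The named types carried their markers: the summed level of 5 macrophage genes was 4909 CPM in macrophages and 61.0 in CD4 T cells, and Foxp3 was detected at 303 in Tregs. Cells annotated as Stem-Progenitor carried both the proliferation genes Mki67 and Top2a (1262 CPM together) and the T cell genes Cd3d, Cd3e and Trac (1332 together). Insulin, Iapp and Chga summed to at most 2.62 CPM in any type, so beta cells were close to absent after the CD45 sort and the mutation, which is theirs, could not be checked in these libraries. Whether the Rnls mut line is a single clone is not given in the sources used here.

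On the mm10 (GRCm38) assembly, Osm lies on chromosome 11 from 4236420 to 4241026 and Lif follows on the same strand from 4257557 to 4272514, with 16530 bases between them. Socs3 lies on the minus strand of the same chromosome from 117966079 to 117970047. Il6 is on chromosome 5 (30013114 to 30019981), Il6ra on chromosome 3 (89864059 to 89913196), Il6st on chromosome 13 (112464070 to 112510086) and Osmr on chromosome 15 (6813577 to 6874969). The motif TTCNNNGAA, which reads the same on both strands and is the core form bound by STAT proteins, was searched in the 250 bases before each RefSeq start. Of the 6 members with a promoter entry, Socs3 alone held it, and 2306 of 32851 promoters (7.02%) did so. The Socs3 stretch is shown because STAT3 is the known inducer of this gene. It spans chr11:117969502-117969530 on the minus strand, in an intron of a noncoding Socs3 transcript, with the motif in capitals starting 154 bases before the RefSeq start.
Socs3 promoter: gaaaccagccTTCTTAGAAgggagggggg
The RefSeq start lies 180 bases upstream of the GENCODE coding start. Counted from the GENCODE coding start, the motif falls outside the 250 bases searched, so the hit depends on the start used. The match is a description of the letters only, since no binding was measured.

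**Figure D1:**
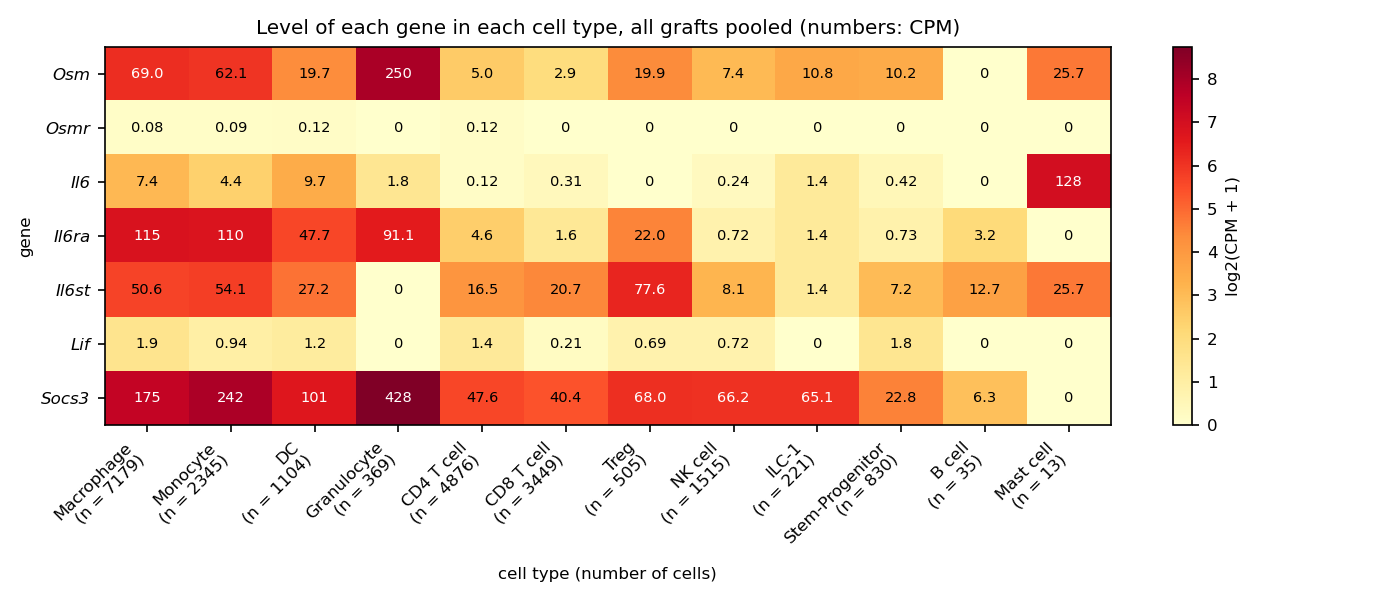
Level of each of the 7 genes (rows) in each of the 12 annotated cell types (columns), as CPM over all grafts pooled, with colour on a log2(value + 1) scale. Read along a row, Osm was highest in granulocytes, macrophages and monocytes, Il6st reached its highest level in Tregs and was 0 in granulocytes, and Osmr stayed near 0 throughout.

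Osm was a transcript of the myeloid infiltrate. Of its 4026 UMIs, 67.6% were in macrophages and 18.03% in monocytes. Averaged over the grafts with at least 10 cells of a type, the level was 215 ± 192 CPM (SD, n = 12 grafts) in granulocytes, 74.5 ± 40.8 (n = 16) in macrophages and 63.8 ± 40.3 (n = 15) in monocytes. Granulocytes were above macrophages in 9 of 12 grafts and macrophages above monocytes in 11 of 15, so these neighbours did not separate beyond their spread over both days. Monocytes were above Tregs (19.8 ± 18.1, n = 14) in 13 of 14 grafts. Tregs and dendritic cells (DC, 18.99 ± 12.7, n = 16) did not separate, with Tregs above in 5 of 14 grafts, and DC were above ILC-1 (10.7 ± 15.6, n = 8) in 7 of 8. The lowest levels were 5.15 ± 2.51 in CD4 T cells and 3.27 ± 3.53 in CD8 T cells (n = 16 each).

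An Osm UMI was seen in 23.1% of macrophages, 20.2% of monocytes, 22.2% of granulocytes and 10.3% of DC, against 0.783% of CD8 T cells. The CD8 T cells of all libraries were pooled for this share, and most came from day 10. They numbered 1311 and 1562 at day 10 and 409 and 167 at day 17 (Rnls mut and WT). They were also shallower than macrophages, so the share sets no limit for free RNA in the droplets of each library. Granulocytes were shallow, with a median of 1319 UMIs per cell against 4719 in macrophages and 2555 in CD8 T cells. After each cell was thinned to 1000 UMIs the share was 17.6% in granulocytes, 6.19% in macrophages, 5.51% in monocytes and 2.37% in DC. Single cells held up to 35 Osm UMIs.

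Within the macrophages, cluster 4, whose leading genes were Gm15056, Inhba, Slpi, Procr and Cxcl9, carried Osm at 121.7 CPM and held 32.4% of all Osm UMIs. Among DC, cluster 21 (led by Fscn1 and Ccl5) stood at 46.5 and cluster 17 (led by Cd209a, Clec4n and Mgl2) at 36.6, while cluster 19, which expressed the cross-presenting DC gene Xcr1, had 1.34. The clusters were built from the same genes, so these levels are descriptions.

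At day 10, macrophages of Rnls mut grafts carried more Osm than those of WT grafts. The 4 Rnls mut grafts had 195.7, 110.7, 94.2 and 105.5 CPM and the 4 WT grafts 83.2, 74.6, 80.7 and 32.4. Every Rnls mut graft was above every WT graft. The means were 126.5 ± 46.6 and 67.7 ± 23.8 (SD, n = 4 each), a difference of 58.8 (exact permutation test over grafts, two-sided, p = 0.0286, the smallest that 4 against 4 allows). Without the highest Rnls mut graft the difference was 35.8 (exact permutation test, p = 0.0571), and without any 1 of the WT grafts p was 0.0571 to 0.0857. The grafts that remained still did not overlap.

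Monocytes showed the same order with little spread. Osm stood at 86.8, 89.3, 84.2 and 84.4 CPM in the Rnls mut grafts and at 40.2, 42.3, 52.9 and 43.8 in the WT grafts at day 10. The groups did not overlap, and the means of 86.2 ± 2.39 and 44.8 ± 5.60 differed by 41.4 (exact permutation test, two-sided, p = 0.0286, n = 4 each). Leaving out any 1 graft gave the same p, which is also the smallest that 4 against 3 allows. Among all genes tested, every Rnls mut graft lay above every WT graft for 2.33% in macrophages and for 1.93% in monocytes.

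Across all genes the difference did not pass. The edgeR log2 fold change of Osm, Rnls mut over WT at day 10, was 0.89 (SE 0.29, adjusted p = 0.519) in macrophages and 0.91 (SE 0.25, adjusted p = 1) in monocytes. None of the 5 members tested in macrophages passed, where 0.0322% of all genes did, and none of the 4 tested in monocytes, where the share was 0%. At an unadjusted p below 0.05, 2 of the 5 and 2 of the 4 members were counted, Osm and Socs3 among them, beside 7.06% and 2.46% of all genes. DESeq2 on the same sums called Osm in monocytes (adjusted p = 0.0314) and Socs3 in macrophages (adjusted p = 0.0136), and edgeR fitted on day 10 alone called Osm in monocytes (adjusted p = 0.0244). Over the 8 alternatives tried the adjusted p of edgeR or DESeq2 ran from 0.0244 to 1 for Osm in monocytes and from 0.0136 to 0.404 for Socs3 in macrophages.

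**Figure D2:**
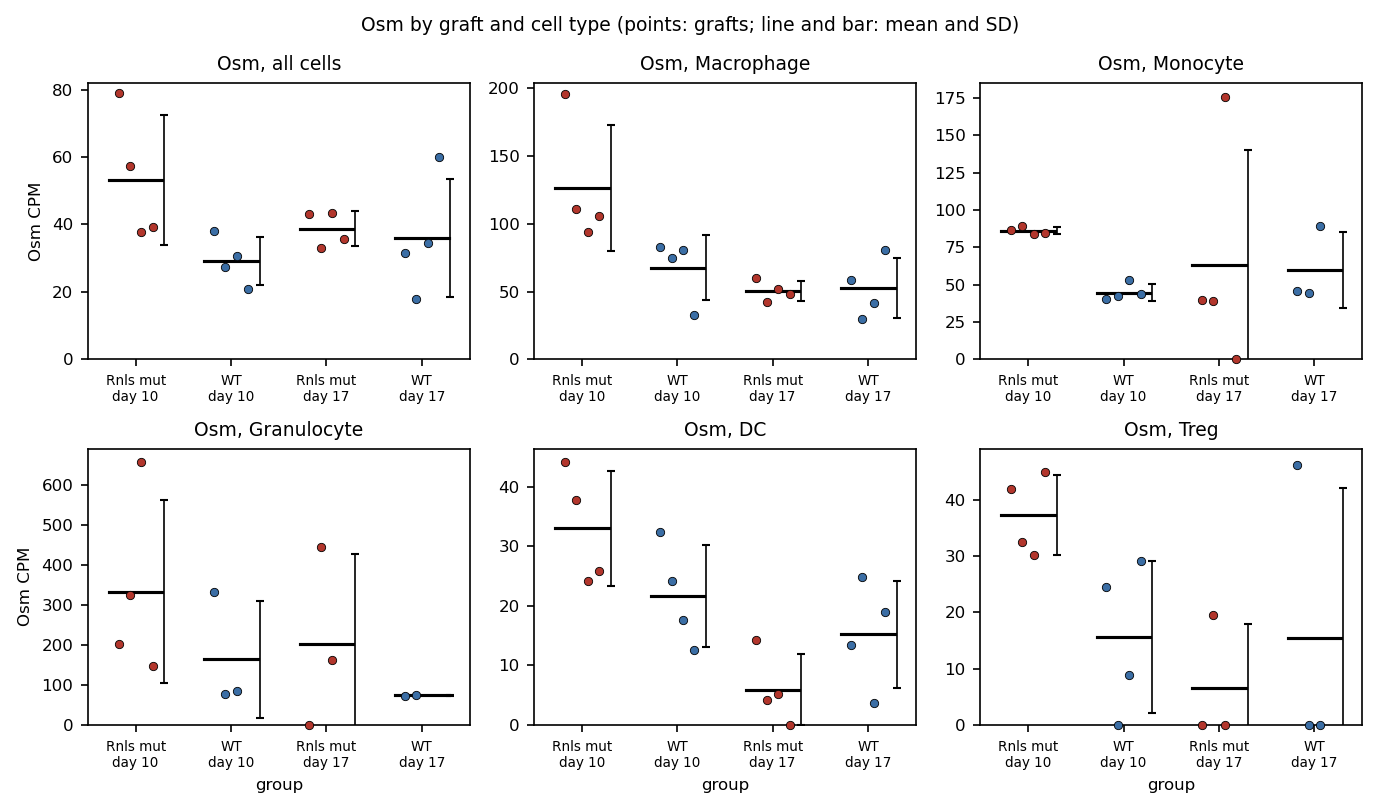
Osm in CPM (y axis) in each graft (points) of the 4 groups (x axis), over all cells and in 5 cell types, for grafts with at least 10 cells of the type, with the mean (line) and SD (bar). At day 10 the Rnls mut points sit above all WT points in macrophages, monocytes and Tregs, and the groups overlap in every panel at day 17.

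The other Osm sources were less well resolved. In granulocytes at day 10 the 4 Rnls mut grafts had 203, 325, 656.5 and 147 CPM and the 3 WT grafts with at least 10 cells had 332, 76.4 and 84.1, so the groups overlapped (exact permutation test, p = 0.343). At that time granulocytes were 2.92% of cells in Rnls mut and 0.661% in WT grafts. In DC the Rnls mut grafts had 24.1 to 44.2 and the WT grafts 12.6 to 32.5 (exact permutation test, p = 0.171). Tregs held only 29 Osm UMIs in all, and their day 10 grafts ranged from 30.1 to 44.8 in Rnls mut and from 0 to 29.0 in WT (exact permutation test, p = 0.0286). The share of all genes that separate the genotypes in this way in Tregs is not given here. The genotype effect was compared between macrophages, monocytes, DC and granulocytes in 12 pairs of type and day, and no difference was detected (exact permutation tests, smallest p = 0.286, adjusted p = 1). The day 17 pairs with granulocytes had 3 against 2 grafts and 10 assignments, so they could not reach the threshold. The other pairs had 35 or 70 assignments, too few for a single pair to pass after adjustment over the 12. A difference limited to 1 pair could therefore not have been detected.

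At day 17 the genotypes overlapped. Macrophage Osm was 60.0, 42.4, 52.2 and 48.6 CPM in the Rnls mut grafts and 58.8, 30.0, 41.5 and 80.6 in the WT grafts, with means of 50.8 ± 7.36 and 52.7 ± 22.0 (exact permutation test, p = 0.943, n = 4 each). The change of the genotype effect between days had a log2 size of -0.94 in macrophages and did not pass (edgeR, adjusted p = 0.502), so a difference between the days was not shown. Monocytes were scarce by then, and Rnls mut grafts ranged from 0 to 175.7.

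Summed over all cells of a graft, Osm at day 10 was 53.3 ± 19.3 in Rnls mut and 29.3 ± 7.16 CPM in WT (exact permutation test, p = 0.0571, n = 4 each). A difference in a sum can come from a larger share of a type among the UMIs or from a higher CPM within that type. The difference was therefore split by cell type. The level within a type also holds shifts between the clusters of that type. Of the 24.0 CPM, 25.1 came from the level within types and -1.10 from the mix of types. Macrophages gave 13.8 of the level part and monocytes 6.87, with smaller parts from granulocytes (1.10), Stem-Progenitor cells (1.03) and DC (1.01). At day 17 the difference was 2.86, of which 3.37 went with the mix and -0.51 with the level. Leaving out 1 graft moved the mix part from 1.35 to 5.89 and the level part from -4.47 (without WT graft 2) to 6.22 (without WT graft 4), so the sign of the day 17 level part was not settled. With every graft set to 1 common mix of 9 types, Osm at day 10 was 74.4 ± 21.4 against 39.8 ± 11.8 (exact permutation test, p = 0.0286), and at day 17 33.6 against 33.2 (p = 0.943).

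**Figure D3:**
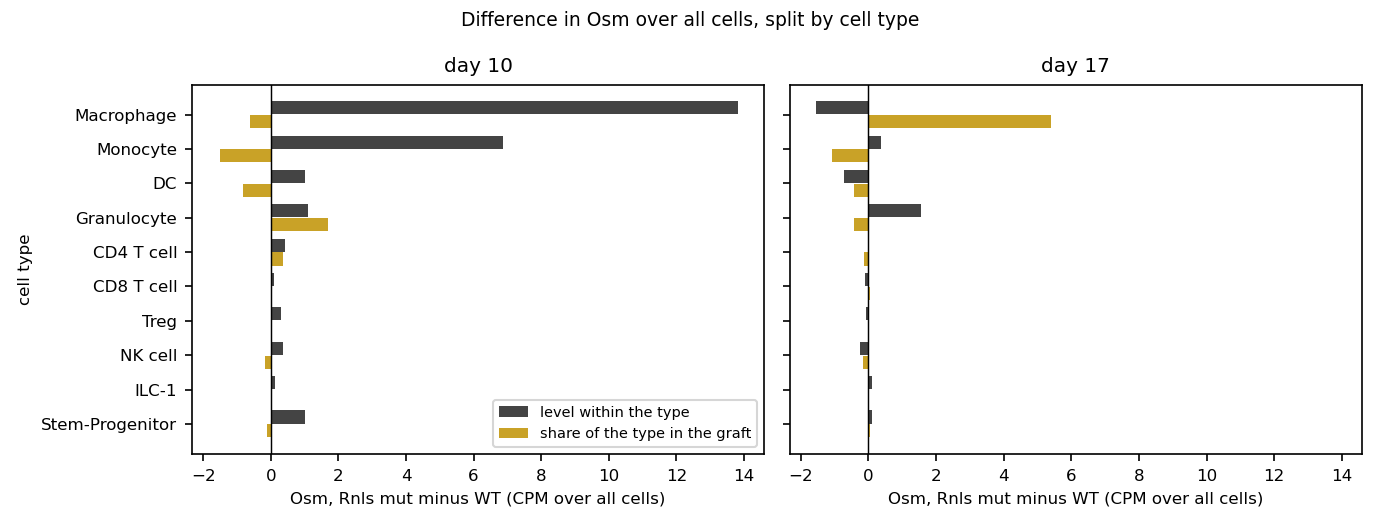
The difference in Osm over all cells, Rnls mut minus WT, in CPM (x axis), split for each of 10 cell types (y axis) into the part from the level within the type (dark bars) and the part from the share of the type (yellow bars). At day 10 the level within macrophages (13.8) and monocytes (6.87) carries most of the difference, and at day 17 the bars are smaller and of both signs.

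The day 10 difference was also looked for within the annotated clusters, a comparison added after the data had been seen. In macrophage cluster 4 Osm was 152 ± 42.4 in Rnls mut and 86.5 ± 33.4 in WT, and in macrophage cluster 5, led by Gm26917 and Gm42418, it was 137 ± 37.5 and 46.5 ± 26.0 (exact permutation tests, p = 0.0286 each, n = 4 each). Cluster 5 rested on 36 and 17 Osm UMIs at day 10 (Rnls mut and WT), against 736 and 399 in cluster 4. In macrophage cluster 13 the values of 62.1 ± 31.2 and 44.4 ± 18.4 overlapped (exact permutation test, p = 0.343). Monocyte cluster 1 had 96.7 ± 12.1 and 49.3 ± 5.65 (exact permutation test, p = 0.0286). At day 10 cluster 4 held 67.9% of macrophages in Rnls mut and 51.5% in WT grafts. Cluster 13 was led by the heat shock genes Hspb1 and Hsph1.

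Over time, Osm fell in macrophages and DC in the mean of both genotypes. The log2 fold change, day 17 over day 10, was -0.999 (SE 0.21, edgeR, adjusted p = 0.00081) in macrophages and -1.33 (SE 0.38, adjusted p = 0.0148) in DC. In granulocytes and monocytes it did not pass. Over all cells Osm changed by -0.13 (edgeR, adjusted p = 0.618), while macrophages rose from 21.5% and 22.9% of a graft's UMIs at day 10 (Rnls mut and WT) to 67.8% and 56.6% at day 17.

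The make-up of macrophages and DC changed between the days in both genotypes. Cluster 4 dropped from 67.9% and 51.5% of macrophages to 4.89% and 7.31%. Among DC, cluster 19 went from 19.1% and 20.6% to 59.8% and 52.0%. Within cluster 4 at day 17, Osm was 107 ± 61.9 (n = 3) in Rnls mut and 64.2 ± 23.1 (n = 2) in WT. The part of these shares in the fall of the mean Osm level was not tested.

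Il6 was sparse and sat in few cells. Of its 441 UMIs, 85.9% were in the 1% of cells with the most. DC averaged 8.37 ± 6.52 CPM (n = 16), macrophages 7.93 ± 4.91 (n = 16) and monocytes 3.739 ± 3.6 (n = 15), and DC were above macrophages in 9 of 16 grafts. By cluster the highest levels were 34.9 in DC cluster 21 and 24.6 in macrophage cluster 10, which was led by Retnla, Fcrls and Ear2 and held 29.0% of the Il6 UMIs. The 13 mast cells held 5 Il6 UMIs.

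Il6 did not separate the genotypes in macrophages, monocytes or DC at either day. In macrophages it was 10.1 in Rnls mut and 5.01 in WT at day 10 (exact permutation test, p = 0.286) and 6.04 and 10.5 at day 17 (p = 0.0571). Macrophage cluster 10 had 26.0 ± 10.4 and 27.7 ± 3.62 at day 17. In monocyte cluster 14 at day 10 the Rnls mut grafts had 3.22 to 12.2 (n = 3) and the WT grafts 0 (n = 4). That separation rested on 4 and 0 Il6 UMIs (exact permutation test, p = 0.0286). The share of all genes that separate the genotypes in this way in cluster 14 is not given here.

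Lif, the neighbour of Osm on chromosome 11, gave 142 UMIs. In macrophages at day 10 the Rnls mut grafts had 11.4, 6.82, 4.65 and 2.64 CPM and the WT grafts 3.749, 3.895, 1.68 and 1.41, which overlapped (exact permutation test, p = 0.114). At day 17 no graft exceeded 0.853 in either genotype. The day 17 grafts lay below all day 10 grafts (means 0.246 and 4.53, exact permutation test exchanging days within genotypes, p = 0.000408, the smallest it allows). The share of all genes that separate the days in this way is not given here, and edgeR called 50.9% of all genes between days in macrophages. Over all cells Lif fell by 1.63 on the log2 scale (SE 0.50, edgeR, adjusted p = 0.011). Cluster 4, which was most of the macrophages at day 10 and few of them at day 17, held 40.1% of the Lif UMIs.

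Osmr, the chain that pairs with gp130 for oncostatin M, was close to undetected in the CD45+ cells. It gave 7 UMIs in 22441 cells, 3 in macrophages, 2 in CD4 T cells and 1 each in a monocyte and a DC. No UMI was counted in CD8 T cells, NK cells, Tregs or granulocytes, which allows up to 0.311, 0.717, 2.06 and 5.26 CPM in these types (3 UMIs over the type's total). The stromal and beta cells of the grafts were outside the sort, so Osmr in those cells was not measured.

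Il6ra, the ligand-binding chain for interleukin 6, was myeloid. It averaged 139 ± 51.6 CPM in monocytes (n = 15), 107 ± 41.9 in macrophages (n = 16), 82.8 ± 43.2 in granulocytes (n = 12) and 54.9 ± 25.3 in DC (n = 16). Monocytes were above macrophages in 13 of 15 grafts and granulocytes above DC in 8 of 12. Macrophages were above granulocytes in every graft at day 17 (114.5 to 164.5 against 42.4 to 83.7), whereas at day 10 their means were 63.7 and 74.3 against 87.9 and 92.9 in granulocytes (Rnls mut and WT). T cells had little: 24.1 ± 25.7 in Tregs, 5.67 ± 4.78 in CD4 T cells and 1.67 ± 2.27 in CD8 T cells.

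Il6ra rose with time in macrophages, monocytes and DC. In macrophages the Rnls mut grafts had 60.5, 65.0, 60.5 and 68.6 CPM at day 10 and 164.5, 159, 127.6 and 156 at day 17, and the WT grafts had 82.1, 65.1, 66.1 and 83.9 and then 157, 146.7, 114.5 and 141. No day 17 graft overlapped a day 10 graft, in a type where edgeR called 50.9% of all genes between days. The log2 fold change was 0.93 in macrophages (SE 0.09, edgeR, adjusted p = 7.44e-07), 0.58 in monocytes (SE 0.15, adjusted p = 0.0128) and 0.92 in DC (SE 0.20, adjusted p = 0.00261). Exact permutation tests of the days gave p = 0.000408 in macrophages and monocytes and 0.000816 in DC.

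The clusters that filled these types changed with the day and differed in Il6ra. Macrophage cluster 4, with 83.2% of its cells from day 10, had 56.5 CPM, while clusters 2 and 5, with 4.44% and 10.7% from day 10, had 172.5 and 166. Monocyte cluster 1, which went from 78.1% and 82.3% of monocytes to 44.8% and 57.9% (Rnls mut and WT), had 98.2, and monocyte cluster 14 had 181.8. DC cluster 21 had 10.1 and DC cluster 19, whose share rose, 52.7. The part of these shares in the rise of Il6ra was not tested.

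Many genes moved with the day, and the members have to be read against that. Full separation of the day 10 and day 17 grafts is given for Il6ra, Lif, Il6st and Socs3 in single types. The share of all genes that separate the days in this way is not given here. In macrophages 4 of 5 members tested passed where 50.9% of all genes did, in DC 3 of 4 where 27.1% did, in monocytes 1 of 4 (14.4%) and in granulocytes 1 of 2 (8.74%). In CD4 T cells 2 of 2 passed (36.6% of all genes), in CD8 T cells 1 of 2 (21.4%) and in Tregs 1 of 1 (15.7%). In NK cells the 1 member tested, Socs3, did not pass (0.53, edgeR, adjusted p = 0.142), where 12.9% of all genes did. Over all cells 4 of 6 passed where 57.6% of all genes did, and the weakest of these calls, Socs3 (0.16, edgeR, adjusted p = 0.0432), was lost in 12 of 16 fits leaving out 1 graft. Scaling to total UMIs in place of TMM factors moved the median of all genes from 0.02 to 0.18 in macrophages and from 0.01 to 0.14 in CD4 T cells on the log2 scale, and the members called kept their direction.

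Over all cells Il6ra increased by 1.40 on the log2 scale (SE 0.11, edgeR, adjusted p = 1.06e-07), against 0.93, 0.58 and 0.92 within those 3 types. The share of Il6ra UMIs found in macrophages went from 38.2% to 91.7% in Rnls mut and from 42.7% to 81.5% in WT, while the monocyte share went from 46.8% to 2.93% and from 44.4% to 9.21%. The genotypes did not differ in Il6ra in macrophages at day 10 by more than the spread (63.7 ± 3.91 against 74.3 ± 10.1, exact permutation test, p = 0.114, n = 4 each), and monocytes had 103 and 102.

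**Figure D4:**
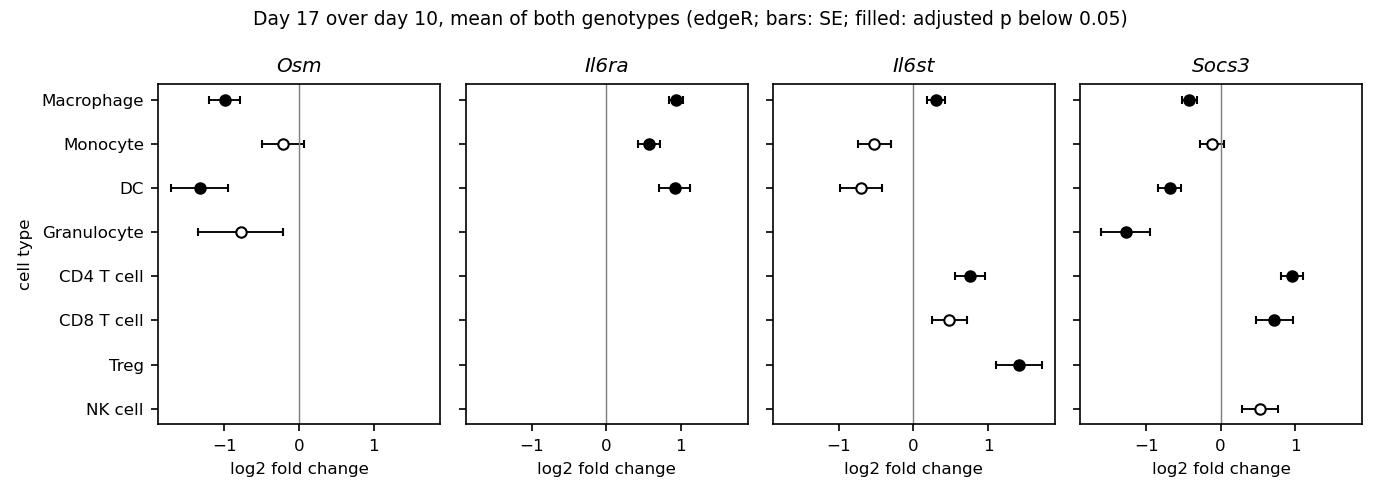
Log2 fold change, day 17 over day 10 in the mean of both genotypes (x axis), of Osm, Il6ra, Il6st and Socs3 in the cell types where each was tested (y axis), with SE bars and filled points where the edgeR adjusted p is below 0.05. Il6ra lies to the right in each of its 3 types, while Osm and Socs3 lie to the left in macrophages and DC and Socs3 lies to the right in CD4 and CD8 T cells.

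Il6st, which encodes the shared chain gp130, was spread more widely. Tregs averaged 86.9 ± 64.9 CPM (n = 14), monocytes 49.6 ± 14.4 (n = 15) and macrophages 48.98 ± 12 (n = 16). The order of Tregs and monocytes depended on the day. At day 17 every Treg graft (75.1 to 254.8) was above every monocyte graft (19.4 to 73.0), whereas at day 10 the Treg means were 34.2 and 57.8 and the monocyte means 55.8 and 55.0 (Rnls mut and WT). Monocytes were above macrophages in 10 of 15 grafts. Macrophages were above CD8 T cells (23.9 ± 8.54, n = 16) in 16 of 16 grafts. DC (23.7 ± 12.4) and CD4 T cells (19.01 ± 9.06) were close to CD8 T cells, and NK cells had 7.83 ± 7.31. In granulocytes no Il6st UMI was counted among 570750, which allows up to 5.26 CPM, and 0 of 369 cells had one (exact binomial 95% upper bound 0.995% for cells with a UMI, which at a median of 1319 UMIs per cell sets no limit on cells that express the gene), although the same cells carried Il6ra, Socs3 and Osm. Lifr was also 0 in granulocytes, against 53.4 in macrophages.

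Il6st rose with time in Tregs. At day 10 the Rnls mut grafts had 52.3, 16.3, 34.4 and 33.6 CPM and the WT grafts 49.0, 61.7, 62.6 and 58.1. At day 17 the 3 Rnls mut grafts with at least 10 Tregs had 138.6, 254.8 and 162.8 and the 3 WT grafts 138.6, 75.1 and 78.8. Each day 17 graft was above each day 10 graft (exact permutation test, p = 0.000816), in a type where edgeR called 15.7% of all genes between days. On the log2 scale Il6st increased by 1.41 (SE 0.31, edgeR, adjusted p = 0.00258).

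The day 17 values rest on 41 and 19 Il6st UMIs in 94 and 50 Tregs. Macrophage transcripts were more abundant among the T cells of the Rnls mut day 17 library: the 5 macrophage markers summed to 237 CPM in its Tregs (176 to 315), 56.2 in WT day 17, and 21.9 and 34.2 at day 10, against 4909 in macrophages. At day 17 Il6st in macrophages ranged from 47.1 to 72.5 CPM in Rnls mut and from 38.1 to 67.1 in WT grafts. The part of macrophage transcripts in the rise of Il6st in Tregs was not tested. In CD4 T cells Il6st also rose (0.76, SE 0.20, edgeR, adjusted p = 0.00552), with macrophage markers at 230 in Rnls mut day 17 and at 58.3 in WT day 17.

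In macrophages at day 10, Il6st ran opposite to Osm. The Rnls mut grafts had 35.7, 42.5, 30.3 and 36.0 CPM and the WT grafts 45.0, 42.9, 48.7 and 50.0. Every Rnls mut graft was below every WT graft, as for 2.31% of all genes tested, with the closest pair at 42.5 and 42.9 (exact permutation test, p = 0.0286, n = 4 each). The edgeR test of this difference did not pass. With time Il6st increased in macrophages by 0.30 (SE 0.12, edgeR, adjusted p = 0.0486), a call close to the threshold that was lost in 12 of 16 fits leaving out 1 graft.

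**Figure D5:**
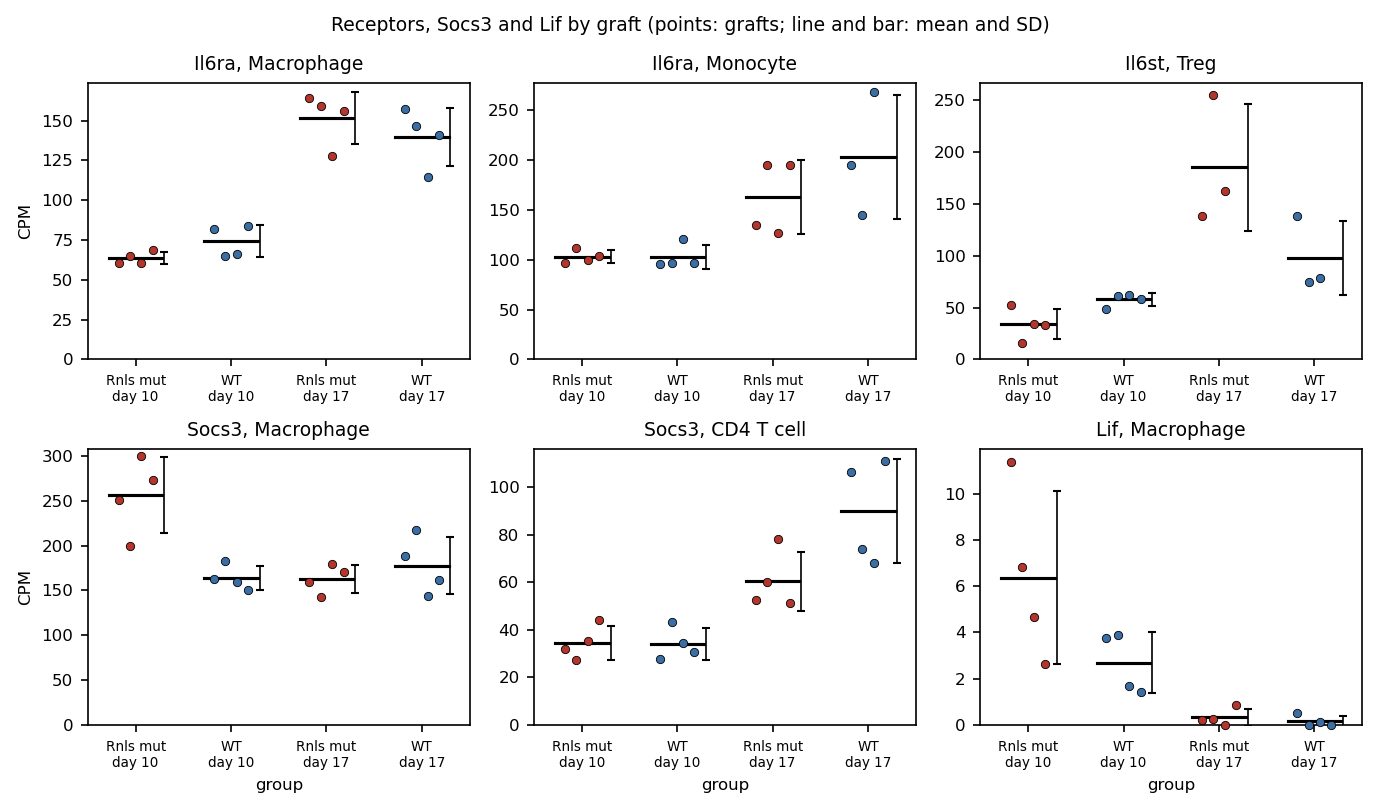
CPM (y axis) of Il6ra, Il6st, Socs3 and Lif in each graft (points) of the 4 groups (x axis) in the cell type named above each panel, with the mean (line) and SD (bar). Il6ra in macrophages and monocytes, Il6st in Tregs and Socs3 in CD4 T cells are higher in all day 17 grafts than in all day 10 grafts, Lif in macrophages is lower, and Socs3 in macrophages is highest in Rnls mut grafts at day 10.

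Socs3, the STAT3-induced inhibitor with the motif printed above before its RefSeq start, was highest in myeloid cells. It averaged 410 ± 237 CPM in granulocytes (n = 12), 246 ± 55.5 in monocytes (n = 15) and 190 ± 47.4 in macrophages (n = 16). Granulocytes were above monocytes in 9 of 12 grafts, monocytes above macrophages in 14 of 15 and macrophages above DC (95.2 ± 35.6) in 16 of 16. NK cells (77.6 ± 34.2), Tregs (69.5 ± 53.7), ILC-1 (58.3 ± 46.2), CD4 T cells (54.8 ± 26.6) and CD8 T cells (49.9 ± 32.5) overlapped.

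Macrophage Socs3 was higher in Rnls mut grafts at day 10, as Osm was. The Rnls mut grafts had 251, 199.9, 300.2 and 273 CPM and the WT grafts 163, 182.5, 159 and 150.1, without overlap. The means were 256 ± 42.5 and 164 ± 13.7 (exact permutation test, p = 0.0286, n = 4 each; p = 0.0571 without any 1 WT graft), and the edgeR log2 fold change was 0.61 (SE 0.14, adjusted p = 0.24). The graft with the highest Osm, at 195.7, had a Socs3 level of 251, below 2 of the other Rnls mut grafts.

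Over all cells at day 10 Socs3 stood at 116.5 to 148.6 in Rnls mut and 94.0 to 108.8 in WT (exact permutation test, p = 0.0286), where each Rnls mut graft exceeded each WT graft for 5.56% of all genes. None of the 6 members tested over all cells passed in edgeR, beside 0.0796% of all genes (Socs3 0.38, SE 0.09, adjusted p = 0.186), and 2 of the 6 had an unadjusted p below 0.05. At 1 common mix of types the difference was 179 ± 17.6 against 120 ± 7.85 at day 10 (exact permutation test, p = 0.0286) and 128 against 144 at day 17 (p = 0.2).

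In monocytes, DC, Tregs and granulocytes the Rnls mut means of Socs3 at day 10 were also above the WT means, without reaching the threshold. Granulocytes had 465 to 842 in Rnls mut (n = 4) and 252 to 480 in WT (n = 3, exact permutation test, p = 0.0857). In the mean of both days the granulocyte difference had p = 0.02 (exact permutation test) and did not pass in edgeR (adjusted p = 0.442). Monocytes had 239 to 334 in Rnls mut and 168 to 255 in WT, DC 119 to 165.5 and 85.1 to 119.8, and Tregs means of 133 and 61.0 (exact permutation tests, p = 0.0571 each). In macrophage cluster 4 Socs3 was 324 ± 65.6 against 223 ± 16.6 (exact permutation test, p = 0.0286), and in cluster 5 255 ± 95.4 against 236 ± 77.4 (p = 0.771). The change of the genotype effect in macrophages between days, -0.72 on the log2 scale, did not pass (edgeR, adjusted p = 0.299).

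With time, Socs3 in the mean of both genotypes fell in macrophages, DC and granulocytes and rose in CD4 and CD8 T cells. It fell by 0.42 (SE 0.10, edgeR, adjusted p = 0.00213) in macrophages, by 0.68 (SE 0.16, adjusted p = 0.00308) in DC and by 1.28 (SE 0.33, adjusted p = 0.0194) in granulocytes on the log2 scale. In macrophages the Rnls mut mean went from 256 ± 42.5 to 163 ± 15.8 CPM, while the WT mean went from 164 ± 13.7 to 178 ± 31.9. The days overlapped there (exact permutation test, p = 0.0743), so a fall in WT macrophages was not shown. Granulocytes had 252 to 842 CPM at day 10 and 105 to 339.5 at day 17 in grafts with at least 10 cells. The clusters of macrophages and DC changed between the days in both genotypes, as given for Osm. Socs3 was 253 CPM in macrophage cluster 4 against 125 to 156 in clusters 2, 10 and 12, and 187 in DC cluster 17 against 57.5 in DC cluster 19, and the part of the shares was not tested. The granulocyte call was lost without Rnls mut day 17 graft 4, WT day 10 graft 1 or WT day 17 graft 1.

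In CD4 T cells Socs3 rose from 34.6 ± 7.11 and 34.1 ± 6.68 (Rnls mut and WT, n = 4 each) to 60.4 ± 12.4 and 90.0 ± 22.0. No day 17 graft fell within the day 10 range (exact permutation test, p = 0.000408), in a type where edgeR called 36.6% of all genes between days. The edgeR log2 fold change was 0.96 (SE 0.15, adjusted p = 2.63e-05). The CD4 T cells of the days lay in different clusters. Cluster 8 went from 5.29% and 5.90% of CD4 T cells to 68.2% and 71.2% (Rnls mut and WT) and had a Socs3 level of 84.6, against 39.0 in cluster 0 and 32.0 in cluster 7, which were mostly of day 10. Il6st stood at 27.6 in cluster 8 and at 13.0 and 11.3 in clusters 0 and 7. The part of these shares in either rise was not tested. In CD8 T cells the mean of both genotypes rose by 0.72 (SE 0.25, edgeR, adjusted p = 0.0354), a call that DESeq2 did not make (adjusted p = 0.0708). Their Rnls mut grafts had 39.2 ± 9.19 at day 10 and 37.2 ± 38.8 at day 17, and the WT grafts 30.7 ± 7.57 and 92.6 ± 18.4. The days overlapped (exact permutation test, p = 0.0518). The change of the genotype effect between days in CD8 T cells did not pass (edgeR, adjusted p = 0.262). In Tregs Socs3 means were 96.8 at day 10 and 33.1 at day 17 (exact permutation test, p = 0.0139), with 6 and 9 UMIs in the day 17 groups. Macrophage markers in CD4 T cells stood at 230 CPM in Rnls mut and 58.3 in WT at day 17. The part of macrophage transcripts in the rise of Socs3 was not tested.

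A list of 49 other genes of gp130 and STAT3 signalling (ligands, receptors, kinases, inhibitors, sheddases and STAT3 targets) was read beside the members. No gene of the list passed between genotypes at either day in any type. For the change of the genotype effect between days, 1 of 21 tested in Tregs passed, Socs1 (-2.03 on the log2 scale, edgeR). The share of all genes that passed there is not given here. Between days in macrophages, 5 of 40 tested rose and 16 fell, with a median log2 fold change of -0.20 against 0.02 for all genes. The count is close to the 50.9% of all genes called there. Those with the smallest p were the inhibitor Socs1 (-1.96), the hypoxia factor Hif1a (-0.99) and the transcription factor Maff (-0.91) among the falls, and the sheddase Adam10 (0.62), the LIF receptor chain Lifr (1.16) and the NF-kappaB cofactor Bcl3 (0.66) among the rises.

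In DC 2 of 31 rose and 6 fell (27.1% of all genes were called), led by Cish (-2.90), an inhibitor of STAT5 signalling, and in monocytes 6 of 38 rose and 5 fell (14.4% of all genes), led by the repressor Bcl6 (1.63) and the chemokine Ccl2 (-1.28). In granulocytes 1 of 18 passed, Socs1 (-2.57), beside 8.74% of all genes. In CD4 T cells 11 of 32 rose and 3 fell (36.6% of all genes), with a median of 0.21 against 0.01 for all genes, and the leading rises were Junb (1.14), Bcl6 (0.91) and Maff (1.71). In CD8 T cells 7 of 29 rose and 6 fell (21.4% of all genes), led by Junb (1.01) and Stat5a (-1.25), and over all cells 15 of 42 rose and 10 fell (57.6% of all genes), led by Lifr (1.85) and Stat5a (-0.85). Tregs had 6 rises of 21 and no fall (15.7% of all genes), among them Junb (0.91), the adhesion gene Icam1 (1.32) and the kinase gene Jak2 (0.66).

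The patterns of the 4 members with at least 500 UMIs were compared with those of 9574 genes over 37 groups of type, genotype and day, which share libraries and differ in depth. By Pearson correlation of log2(CPM + 1), the genes most like Osm were Fth1 (0.90), which encodes ferritin heavy chain, Nampt (0.898) and Eif4ebp1 (0.895). Il6ra was most like Ifngr2 (0.924), a chain of the interferon gamma receptor, Tctex1d2 (0.911) and Brk1 (0.909). Il6st was most like Cpped1 (0.856), Ctif (0.855) and Cox14 (0.849). Socs3 was most like Cd300lf (0.88), Atp6v0d1 (0.871) and Sdcbp (0.869).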

How the data were processed

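CD45+ PI- cells were sorted from the grafts, hashed, and sequenced as 4 pooled libraries with a droplet 3′ tag protocol. Cell Ranger and the mm10 build are named in the submitters' processing notes, with versions not given in the sources used here. The deposited table gives, for each gene and cell, the UMI counts without normalization. The deposited metadata give library, hashtag, cell type and cluster. The hashtag libraries themselves were not analysed here. The reactions were loaded with more cells than usual, which raises the number of doublets, and how the depositors treated doublets is not given in the sources used here. None were called here, and an alternative left out the 6% of cells with the most UMIs in each library (1348 cells).

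UMIs were summed per graft and cell type (at least 10 cells) and expressed as CPM (the gene's UMIs scaled to a total of 1000000). The summed counts were tested with edgeR 4.0.16 in R 4.3.3 (quasi-likelihood, TMM, filterByExpr, 1 mean per genotype and day), adjusted by Benjamini-Hochberg over all genes tested. A type entered with at least 2 grafts in each group. Single values were tested by exact permutation over grafts (two-sided, SciPy 1.17.1), exchanging labels within day or genotype. The Osm difference over all cells was split symmetrically into mix and level. Thinning to 1000 UMIs per cell used exact expected shares. Levels were not tested between cell types, which were clustered on the same genes, and between types only the genotype effect on Osm was compared. The fits were tested on simulated data. Alternatives were DESeq2 1.42.0, total-UMI scaling, no count filter, 1 or 20 cells per graft, each day alone, a hashtag block, and leaving out each graft.

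Grafts were the replicates, and p-values measure the spread among grafts of 1 library per group. Intervals cover counting error only. The 7 genes and the gene lists were chosen with earlier results of these data known. Named genes were all members, up to 3 listed pathway genes per comparison and direction by smallest p, and the 3 genes most correlated with each member of at least 500 UMIs. Positions come from GENCODE and the promoter sequence from RefSeq (GRCm38.p6), which had an entry for 6 of the 7 genes.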

Additional observations from a re-analysis of the deposited data

Results flagged for a closer look

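In 7 of 92 groups of 4 grafts, 1 graft stood apart from the other 3 by more than Dixon's 95% critical ratio, a rate that chance gives in about 1 of 20 groups. Both Osm groups of macrophages at day 10 were among them: Rnls mut graft 1 had 195.7 CPM where the others had 94.2 to 110.7, and WT graft 4 had 32.4 where the others had 74.6 to 83.2. For Il6ra in monocytes, WT day 10 graft 3 had 120.6 against 96.1 to 96.8. For Il6st over all cells, WT day 17 graft 2 had 27.0 against 46.7 to 48.6. Socs3 in CD8 T cells was low in Rnls mut day 10 graft 2 (25.4 against 42.5 to 44.7) and in WT day 17 graft 2 (65.0 against 99.9 to 103), and Socs3 in NK cells was high in WT day 10 graft 2 (74.5 against 45.7 to 49.6).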

How the results depend on the processing

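In the main edgeR fit no member passed between genotypes in any type or contrast. DESeq2 called 1 member at day 10 over all cells (Socs3), 1 in macrophages (Socs3) and 1 in monocytes (Osm), and monocytes also had 1 (Osm) with each day fitted alone and with no filter on low counts. For the days, the number of members called over all cells went from 4 to 2 without the cells with the most UMIs, in monocytes and in granulocytes from 1 to 0 with no filter, in CD8 T cells from 1 to 0 with DESeq2 or at least 20 cells per graft, and in Tregs from 1 to 2 with DESeq2 or no filter. The causes were not tested. Leaving out 1 graft gave 0 to 2 members in monocytes and 0 to 1 in granulocytes, a day 10 Osm difference in macrophages of 35.8 to 69.6 CPM and a Socs3 difference of 77.8 to 111. The Osm difference was 17.7 within macrophage cluster 13 (exact permutation test, p = 0.343). Il6ra in monocytes lost its day call without WT day 17 graft 1 (adjusted p = 0.0776). The Socs3 rise over all cells was 0.02 (adjusted p = 0.806) without the cells with the most UMIs and was also lost with no filter (adjusted p = 0.237), DESeq2 (0.073) and the block (0.0572). The replicate block on hashtag numbers left granulocytes with 0 members called at the day comparison, against 1 without it (Socs3, adjusted p = 0.0689 with edgeR), and the Il6st call in macrophages was lost (adjusted p = 0.0541). Same-numbered grafts correlated at -0.337 to 0.441, so the numbers are not taken as pairs. Leave-one-out fits were not run for CD8 T cells, Tregs, NK cells and ILC-1. Granulocytes, Tregs and late monocytes held few cells, which limits what could be detected there.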
